A study of Arabidopsis thaliana with 12 samples.

Results

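The 4 genes described here are 3 with ties to plant immunity or the cell surface and 1 receptor-like protein kinase: AT5G52810 (SARD4), AT2G24810 of the thaumatin family, AT2G46300 of a hydroxyproline-rich glycoprotein family and AT1G69910, the kinase. Each is the only gene that the platform's annotation gives for its probe, and none of the 4 loci appears on any other probe. They are 4 of the 689 loci measured by a probe with 1 gene. They were selected on their measured intensities in the comparison of the 2 groups of samples, so their values in that comparison are given as a description and carry no test of their own. SARD4 and the family names come from general knowledge of these loci, since the gene table lists all 4 under their locus codes.

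The samples were total RNA of *Arabidopsis thaliana*, ecotype Landsberg, on an expression array. One group was the laf6 mutant, dark adapted and then given normal light for 1 h (6 samples), and the other was dark-adapted wild type (6 samples). The mutant lacks atABC1, which the labels call a transporter and which is also known as SUFB, a component of iron-sulfur cluster assembly in plastids. Genotype and light changed together, so their contributions cannot be told apart. The labels give no tissue, age or allele, and nothing in them ties the sample numbers to separate plants, so the spread between samples may be technical. SUFB was named for 0 of the 3439 probes and could not serve as a check of the labels.

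SARD4 is a reductase of pipecolic acid synthesis. In that pathway the aminotransferase ALD1 converts lysine to a cyclic intermediate, SARD4 reduces the intermediate to pipecolic acid, and the monooxygenase FMO1 turns this into N-hydroxypipecolic acid, a signal of systemic acquired resistance. Thaumatin-like proteins take their name from the sweet protein thaumatin, and the pathogenesis-related protein PR5 is a member of the family. Receptor-like kinases span the plasma membrane and pass outside signals to a kinase domain in the cell. Hydroxyproline-rich glycoproteins are a broad class of cell wall and cell surface proteins, and the family name alone does not place AT2G46300 in the cell wall.

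The deposited values are intensities on a linear scale whose unit is not stated, from 0 up to a ceiling of 100. Sample medians lay between 0.161 and 0.170 in laf6 and between 0.218 and 0.289 in wild type, and 14.6% to 19.3% of the probes were listed at 0 in laf6 samples, against 13.0% to 15.7% in wild type samples. Samples 1 and 2, 3 and 4, and 5 and 6 of a group deviated together and were averaged, which left 3 replicates per group. Log2 differences below are illuminated laf6 minus dark wild type. Over all probes the median difference was -0.54 as deposited and -0.08 after quantile normalisation, so each normalised difference is relative to that shift. In bulk RNA, fewer cells of a type and less RNA per cell cannot be told apart.

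SARD4 (probe 974) was lower in illuminated laf6 in all samples. Its intensity ran from 1.26 to 1.61 with a median of 1.49 in the 6 laf6 samples, against 2.47 to 3.65 with a median of 3.12 in the 6 wild type samples. The groups did not overlap, and the highest laf6 sample lay well under the lowest wild type one. The replicate means averaged 1.46 ± 0.143 in laf6 and 3.08 ± 0.548 in wild type (SD, n = 3 each), so laf6 stood at 0.474 of wild type. The log2 difference was -1.07 ± 0.17 (SE) as deposited and -0.98 ± 0.11 after normalisation.

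As deposited, the 3 replicates of SARD4 fell in the same order in both groups. The laf6 replicates were at 1.579, 1.493 and 1.301, and the same-numbered wild type replicates at 3.606, 3.119 and 2.512. After normalisation the log2 values were 0.73, 0.60 and 0.53 in laf6 and 1.75, 1.51 and 1.54 in wild type. Replicate 1 stayed the highest in both groups, while replicates 2 and 3 of wild type were too close to order. Taken number by number, the log2 difference as deposited stayed between -1.24 and -0.93, a narrower range than the levels themselves had in wild type. Readings averaged into 1 replicate were close, with a median absolute log2 gap of 0.06, against 0.26 between replicates of a group. Over the 2289 probes above 0 in all 12 samples, the corresponding medians were 0.24 and 0.38.

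AT2G24810 (probe 3538), the thaumatin family gene, was listed at 0 in all 6 laf6 samples. In wild type it was above 0 in all 6 samples, from 0.0247 to 0.0844 with a median of 0.0590. Its mean was 0.0553 ± 0.0249 over the wild type replicates (SD, n = 3), and the samples spanned 3.42-fold, the widest spread of the 4 genes within a group. These are dim signals: the lower quartile of all deposited values was 0.0545. No fold is given against a group listed at 0, since it would depend on the value put in place of 0.

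The same pattern was rare on the array and ran in 1 direction. Listed at 0 in all 6 laf6 samples and above 0 in all 6 wild type samples were 11 of 3439 probes (0.32%), while 0 probes showed the reverse. Among probes with 1 gene, 2 of 692 were at 0 in all laf6 samples and above 0 in all wild type samples. AT2G24810 is 1 of these and was chosen for it. A further view came from 118 probes above 0 in all wild type samples whose wild type mean lay within 1.5 times that of AT2G24810. Of these, 3 were at 0 in all 6 laf6 samples, 68 were at 0 in 1 to 5 of them, and 47 in none. Keeping probes by their wild type values lets zeros fall in laf6 alone, so the same count was made the other way round. Of 191 probes above 0 in all laf6 samples with a laf6 mean in that same band, 0 were at 0 in all 6 wild type samples, 40 were at 0 in 1 to 5 of them, and 151 in none. The reverse count is not a matched control, since intensities were lower in laf6 as deposited. In the brightness class of AT2G24810 the median log2 difference was -0.84. Zeros made up 14.6% to 19.3% of the probes in laf6 samples, against 13.0% to 15.7% in wild type samples. Whether this has a part in the 1 direction was not tested.

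**Figure D1:**
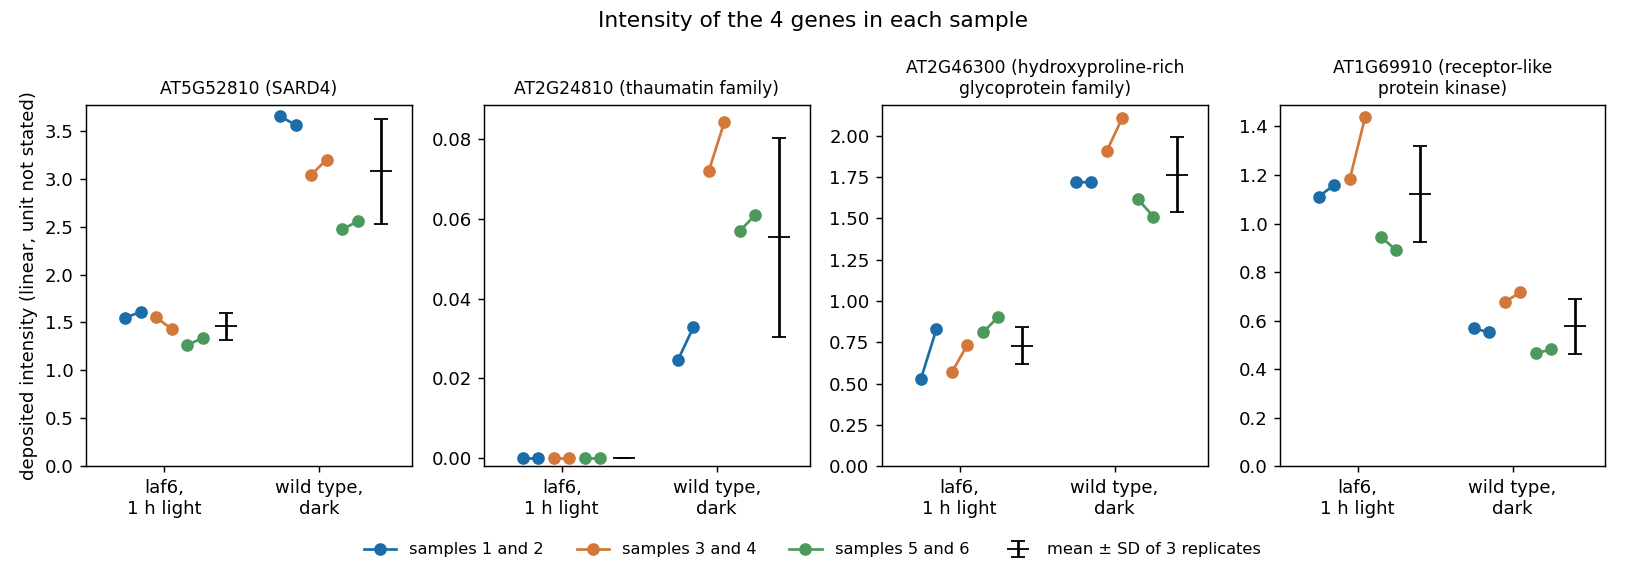
Deposited intensity of the 4 genes (linear axes from 0, unit not stated) in each of the 6 samples of laf6 after 1 h of light and of dark-adapted wild type. Joined points are the 2 samples averaged into 1 replicate, and black marks give the mean ± SD of the 3 replicates. SARD4 and AT2G46300 are lower in laf6, AT2G24810 is listed at 0 in all 6 laf6 samples, and AT1G69910 is higher in laf6, with no overlap in any panel.

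AT2G46300 (probe 2667), the hydroxyproline-rich glycoprotein family gene, was also lower in illuminated laf6. Its intensity ran from 0.528 to 0.905 with a median of 0.772 in laf6, against 1.51 to 2.11 with a median of 1.72 in wild type. The groups did not overlap. The means were 0.729 ± 0.112 in laf6 and 1.76 ± 0.226 in wild type (SD, n = 3 each), a log2 difference of -1.28 ± 0.17 (SE) as deposited and -1.03 ± 0.14 after normalisation.

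AT2G46300 did not keep the order of its replicates across the groups, as deposited. The laf6 replicates were at 0.678, 0.652 and 0.857, and the same-numbered wild type replicates at 1.72, 2.01 and 1.56, so the number that was lowest in laf6 was highest in wild type. The 2 readings of laf6 replicate 1 were 0.528 and 0.828, so the order of replicates 1 and 2 in laf6 is not resolved. The difference by sample number was spread from -1.75 to -0.74 as deposited. Part of that spread lay within 1 replicate, with -1.70 in sample 1 and -1.05 in sample 2. For AT2G46300 the median absolute gap between averaged readings was 0.15, against 0.27 between replicates.

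AT1G69910 (probe 4202), the receptor-like protein kinase, was the 1 gene of the 4 that was higher in illuminated laf6. Its intensity ran from 0.890 to 1.44 with a median of 1.14 in laf6, against 0.465 to 0.718 with a median of 0.560 in wild type. The groups did not overlap. The means were 1.12 ± 0.198 in laf6 and 0.577 ± 0.113 in wild type (SD, n = 3 each), so laf6 stood at 1.95 times wild type. The log2 difference was 0.96 ± 0.22 (SE) as deposited and 1.29 ± 0.13 after normalisation.

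As deposited, the replicates of AT1G69910 kept their order, at 1.14, 1.31 and 0.918 in laf6 and 0.560, 0.697 and 0.474 in the same-numbered wild type replicates. The order also held after normalisation, with log2 values of 0.31, 0.43 and 0.06 in laf6 and -1.07, -0.91 and -1.09 in wild type. By sample number the difference stayed between 0.81 and 1.07 as deposited and between 1.07 and 1.45 after normalisation. That the kinase was higher in laf6 within each of the 6 sample numbers follows from the lack of overlap and adds nothing to it. Averaged readings differed by a median of 0.07 on the log2 scale, and replicates by 0.32.

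**Figure D2:**
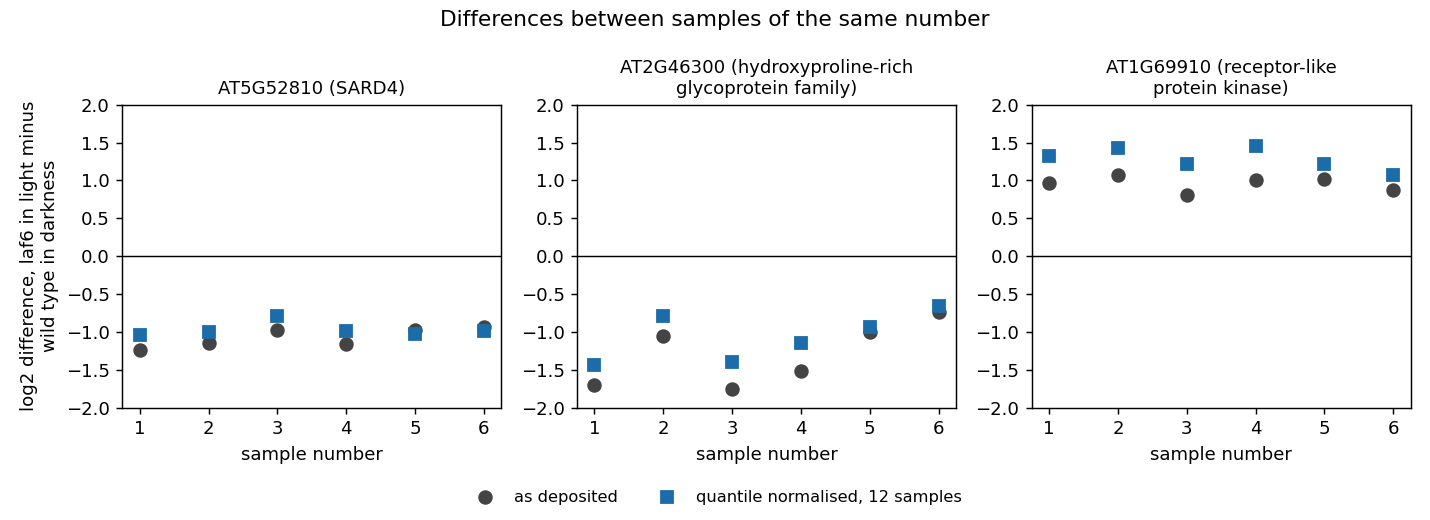
Log2 difference, illuminated laf6 minus dark wild type, between samples of the same number (x axis) for the 3 genes above 0 in all samples, as deposited (circles) and with the 12 samples quantile normalised (squares). SARD4 stays between -1.24 and -0.93 and AT1G69910 between 0.81 and 1.07 as deposited, while AT2G46300 spreads from -1.75 to -0.74.

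The scaling of the arrays changed the size of these differences but not their sign. Against the median probe, which was itself lower in laf6 as deposited, SARD4 stood at -0.53, AT2G46300 at -0.74 and AT1G69910 at 1.50. After quantile normalisation the same distances were -0.91, -0.95 and 1.37. With replicates centred on their medians, the log2 differences were -0.47 ± 0.18 for SARD4, -0.68 ± 0.14 for AT2G46300 and 1.56 ± 0.20 for AT1G69910 (SE). The shift depended on brightness: in 10 classes of probes by mean intensity, the median difference as deposited was -0.25 in the class of SARD4, -0.42 in the class that holds both AT2G46300 and AT1G69910, and -0.84 in that of AT2G24810.

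**Figure D3:**
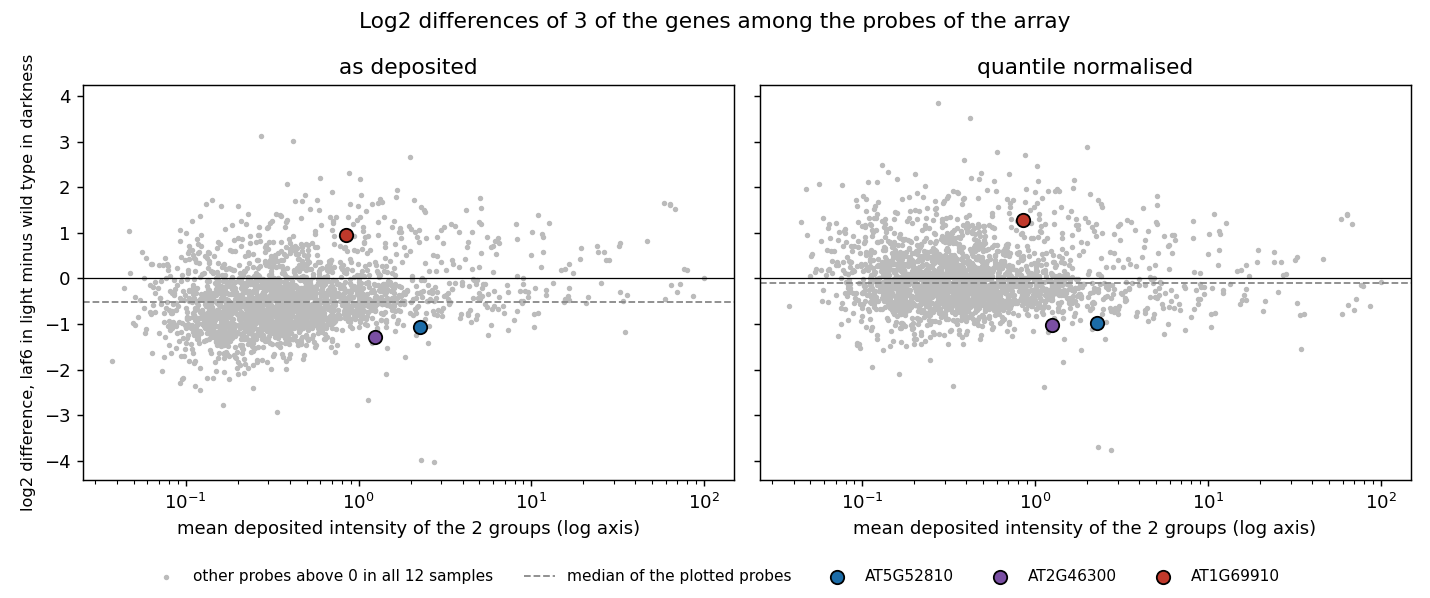
Log2 difference, illuminated laf6 minus dark wild type, against the mean deposited intensity of the 2 groups (log axis), as deposited (left) and quantile normalised (right), for probes above 0 in all 12 samples. SARD4 and AT2G46300 lie below and AT1G69910 above the dashed median of the plotted probes in both panels, and many grey probes lie as far out.

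Differences of this size were not rare among all probes with 1 gene, a set that includes probes with zeros. For probes with zeros the size of the difference depends on the value put in place of the zeros. The counts below therefore do not tell how rare such differences are among probes without zeros. A normalised difference at or below that of SARD4 was found for 94 of the 692 probes with 1 gene (13.6%), and at or below that of AT2G46300 for 86 (12.4%). A difference at or above that of AT1G69910 was found for 80 (11.6%). Of those probes, 15, 12 and 10 passed the threshold in limma, with the 3 genes among them.

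In the limma fit over the whole array, 333 of 3439 probes (9.68%) had an adjusted p under 0.05. The probes of all 4 genes were among them, 1 of the higher ones (5.47% of all probes) and 3 of the lower ones (4.22%), which is what they were chosen for and supports nothing further. With the replicate number as a block, 13 probes (0.378%) were called, and of the 4 genes only AT2G24810, whose fitted value rests on what replaces its zeros. With a pseudocount and the block together, 295 probes (8.58%) were called, among them SARD4, AT2G46300 and AT1G69910 but not AT2G24810. In the values as deposited AT1G69910 was not called, with medians centred SARD4 and AT2G46300 were not, and without wild type replicate 3 AT2G24810 alone of the 4 was. Groups without overlap were also common. As deposited, all laf6 samples lay below all wild type samples for 17.9% of the probes and above them for 4.54%, and after normalisation for 7.73% and 7.97%.

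The rest of the pipecolic acid and salicylic acid pathway could hardly be followed with these probes. Of 38 listed loci of synthesis and signalling, among them ALD1, FMO1, ICS1, EDS1 and NPR1, 1 was measured by a probe with 1 gene, and that was SARD4. Of 45 listed loci of immune receptors, kinases, WRKY factors and pathogenesis-related proteins, 0 were measured in this way. Of 11 loci of lysine synthesis and breakdown, which set the supply of the precursor of pipecolic acid, 1 was measured. The other listed loci were not analysed here.

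That 1 gene was DAPF (AT3G53580), diaminopimelate epimerase of lysine synthesis. DAPF ran from 0 to 0.142 with a median of 0.0492 in laf6, against 0 to 0.304 with a median of 0.0676 in wild type. It was listed at 0 in samples 1 and 2 of both groups and the groups overlapped. Its log2 difference of -0.14 ± 6.08 (SE) after normalisation, with an adjusted p of 1.00 in limma, is too imprecise to give a direction. With the replicate block the adjusted p was 0.647.

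Of 10 listed markers of green tissue, 1 was measured, and of 7 markers of root and 7 of seed, 0 were. The green marker LHB1B2, an antenna protein of photosystem II from a family of near-identical copies, ran from 23.5 to 35.6 with a median of 30.1 in laf6, against 14.1 to 23.2 with a median of 17.1 in wild type. Its samples did not overlap as deposited and overlapped after normalisation, with a log2 difference of 0.57 ± 0.17 (SE) and an adjusted p of 0.113 in limma. The difference was 0.72 ± 0.24 as deposited (adjusted p = 0.105) and 1.32 ± 0.26 with medians centred (adjusted p = 0.0526). LHB1B2 was higher in laf6 within all 6 sample numbers, by 0.21 to 0.77 after normalisation, and with the replicate block its difference was 0.57 ± 0.10 (adjusted p = 0.121). Unlike SARD4, AT2G24810 and AT2G46300, LHB1B2 had a higher mean in illuminated laf6. Its part in their differences was not tested. Light and genotype differed between the groups, so this 1 gene cannot give the amount of green tissue.

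The genes with the profile most like each member were found among 455 other probes with 1 gene that were above 0 in all 12 samples. Likeness was the root mean square gap between normalised log2 profiles over the 12 samples, each centred on its own mean, so the group difference counts in it. Closest to SARD4 were AT4G13680 and AT5G06010, both with a gap of 0.17, and AT4G22830 with 0.22, against a median of 0.59 over all probes compared. AT4G13680 had 0.471 ± 0.0184 in laf6 and 1.02 ± 0.147 in wild type, and AT5G06010 had 0.933 ± 0.0814 and 1.77 ± 0.160 in the same groups (SD, n = 3 each). AT4G22830, at 49.5 ± 3.28 in laf6 and 69.1 ± 19.2 in wild type, differed by -0.79 in normalised log2 values, by -0.45 as deposited and by 0.16 with medians centred, so its likeness to SARD4 rests on the scaling.

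Closest to AT2G46300 were AT3G04650 (gap 0.19), AT3G44570 (0.24) and AT5G35100 (0.25), with a median of 0.66 over all probes compared. AT3G04650, an oxidoreductase, had 1.66 ± 0.212 in laf6 and 3.45 ± 0.624 in wild type. AT3G44570 had 0.740 ± 0.155 in laf6 and 1.49 ± 0.0648 in wild type. AT5G35100, a cyclophilin, had 0.173 ± 0.0102 in laf6 and 0.548 ± 0.0864 in wild type. In laf6, AT2G46300 and each of these genes had lower normalised values in samples 3 and 4 than in samples 5 and 6. From laf6 sample 1 to sample 2, AT2G46300 rose from -0.943 to -0.347 in centred log2 values, while AT3G04650 fell from -0.424 to -0.634. AT3G44570 and AT5G35100 rose between these samples.

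Closest to the kinase AT1G69910 were AT1G32730 (gap 0.23), AT2G46630 (0.30) and AT1G74070 (0.30), with a median of 0.84. AT1G32730 had 2.36 ± 0.329 in laf6 and 1.098 ± 0.169 in wild type (SD, n = 3 each). AT2G46630 had 1.27 ± 0.145 in laf6 and 0.812 ± 0.0578 in wild type, and AT1G74070 had 0.422 ± 0.0915 in laf6 and 0.286 ± 0.0977 in wild type. AT2G24810 was left out of this search because its laf6 values were all 0. None of the 4 genes was among the 3 closest to another of them. The kinase differed in the opposite direction, which counts in the gap, so only SARD4 and AT2G46300 could readily have matched.

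**Figure D4:**
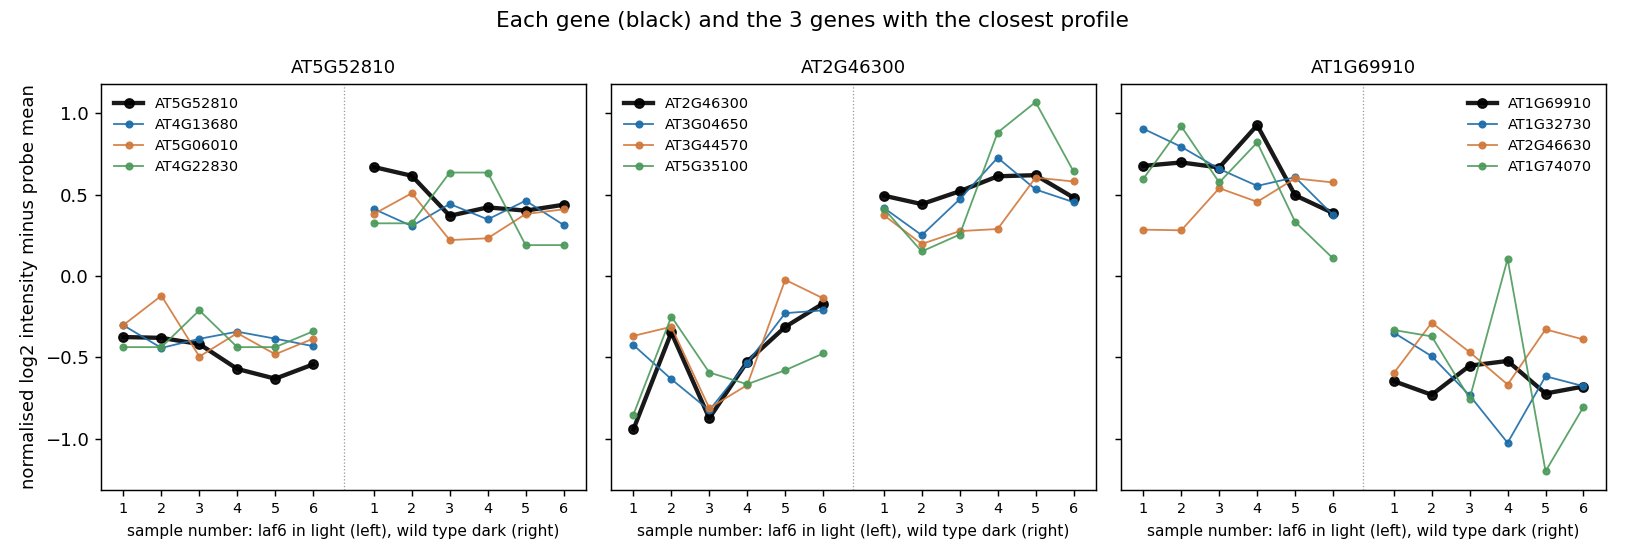
Quantile normalised log2 intensity minus the mean of each probe (y axis) by sample number, laf6 in light on the left and wild type in darkness on the right of each panel, for SARD4, AT2G46300 and AT1G69910 (black) and the 3 genes closest to each (colours). Lines join the samples of a gene only to guide the eye. The closest profile lies at a root mean square gap of 0.17, 0.19 and 0.23 in the 3 panels.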

How the data were processed

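The authors' deposited table holds 1 intensity per probe and sample on a linear scale; the scanner, background correction and scaling are not given in the sources used here. Probes were named through the platform's annotation (692 with 1 gene, 690 of them matched to the TAIR10.1 gene table, which was used for names only). The 4 genes and all gene lists were chosen with earlier results of these data known. Over 1361 probes above 0 in all samples with a mean above 0.3, deviations from the group means correlated at 0.14 to 0.46 between averaged readings and at -0.50 to -0.08 between other readings of a group. Same-numbered replicates of the 2 groups correlated at 0.27 to 0.57, and the numbers were taken as pairing the samples, from the values alone. Correlations between differently numbered replicates of the 2 groups are not given. Whether the correlation is particular to shared numbers was therefore not tested. Averages of 0 were set to the lowest positive average (6.642e-06), taken to log2 and quantile normalised, since sample medians differed by 0.85 on the log2 scale, above the 0.2 allowed. Each probe was tested with limma 3.58.1 (lmFit, eBayes) in R 4.3.3 without a block, with Benjamini-Hochberg adjustment over 3439 probes. This main fit, with its SEs and adjusted p values, leaves the pairing out, and only the fits with a replicate block take it in. The number of arrays limits the precision. Named are the 4 genes, all measured genes of the pathway, lysine and immune lists, and the 3 closest profiles to each gene above 0. Lists of families sought by words in gene names matched 0 probes and so missed even the 4 genes. The gene table holds no descriptions, so this search could not tell whether other members of these families were measured.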

Additional observations from a re-analysis of the deposited data

How the results depend on the processing

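The signs of the differences of SARD4, AT2G24810, AT2G46300 and AT1G69910 were the same in every setting run for them, which their choice made likely beforehand. Over 17 alternatives the log2 difference of SARD4 lay between -1.07 and -0.47 and kept its call in 12, that of AT2G46300 between -1.28 and -0.68 in 9, and that of AT1G69910 between 0.96 and 1.56 in 13. AT2G24810 kept its call in 15 of 16, since without the dimmest 25% of probes it was not tested, and lost it with pseudocount and replicate block together (adjusted p = 0.0525 in limma). Its difference was -0.82 there and depends on how zeros are treated.

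Against 4 of the 4 genes called, 2 were called with medians centred, 1 with the replicate block, and 1 to 4 when 1 replicate was left out. Without laf6 replicate 2 there were 2, and without wild type replicate 3 there was 1. Added after seeing the data, leaving out replicate 1 of both groups left 1, and a floor of 0.01 for zeros left all 4 called. The 2 readings of replicate 1 were the farthest apart over 1361 probes, with a standard deviation of their log2 difference of 0.51 in laf6 and 0.42 in wild type, against 0.30 to 0.39 for the other replicates. AT2G46300 was called in 1 of the 6 fits that left out a replicate, SARD4 in 4 and AT1G69910 in 5.

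Of all probes, 188 were called higher and 145 lower. There were 114 and 360 as deposited, 208 and 45 with medians centred, and 223 and 185 with the floor of 0.01. The replicate block, with 2 residual degrees of freedom, gave 4 and 9. The 12 samples unaveraged gave 353 and 421, and 337 and 427 with the block by sample number. Trend and robust settings gave 273 and 231. Leaving out 1 replicate gave 59 to 113 and 32 to 81, and replicate 1 of both groups 21 and 31. Fewer samples are part of the last settings; otherwise the cause was not tested. DAPF, not called in any setting, changed sign to 0.71 with the 12 samples unaveraged, with or without the block, to 1.36 without the dimmest probes, and in fits without 1 replicate ran from -4.79 to 4.49. AT4G22830 changed sign to 0.16 with medians centred. LHB1B2 was called with the 12 samples unaveraged and with trend and robust settings (adjusted p = 0.0387 in limma for the second). Values near 0 cannot be ranked on these arrays.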
